A study of Caenorhabditis elegans with 26 samples.

Results

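The genes described here are the secreted and lysosomal proteases of Caenorhabditis elegans that carry the symbols nas (astacin metalloproteases), asp (aspartyl proteases), cpr (cathepsin B-like cysteine proteases) and cpz (cathepsin Z-like cysteine proteases), together with the cystatins (cpi), which inhibit cysteine cathepsins. Members were every gene whose symbol is 1 of these names followed by a number and that had a probe set naming that gene alone. Of 17118 genes on the array, 60 were members: 33 astacins, 15 aspartyl proteases, 8 cathepsin B-like genes, 2 cathepsin Z-like genes and 2 cystatins. The gene table holds 67 such symbols, and the other 7 (nas-2, nas-3, nas-23, nas-40, asp-2, asp-16 and asp-18) are not analysed here.

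Astacins are zinc metalloproteases that are mostly secreted and that process cuticle, eggshell and extracellular matrix proteins. Aspartyl proteases of the cathepsin D and pepsin type and the cysteine cathepsins digest protein in acidic compartments, among them the lysosomes and the gut lumen of the worm's intestine. Cystatins bind the active site of papain-type cysteine proteases and block it, so that cystatin and cathepsin are inhibitor and target.

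The study measured embryos from bleached gravid adults on 26 Affymetrix arrays, 1 for each RNA sample, in a study of the complex that lowers X chromosome expression in XX animals. SDC-2 recruits that dosage compensation complex to X, and DPY-27 is its condensin-like subunit. On RNAi plates, 3 samples of sdc-2(y93) XX embryos fed bacteria with an sdc-2 plasmid stood against 3 samples of N2 wild-type XX embryos fed bacteria with an empty plasmid. On NG plates, 3 samples of dpy-27(y57) XX embryos stood against 3 of wild-type XX. On egg plates, 8 samples of XO embryos of strain TY2222 stood against 6 of wild-type XX. TY2222 carries her-1(hv1y101) and xol-1(y9) along with sdc-2(y74) and unc-9(e101), so these XO embryos carry an sdc-2 mutation as well. The sample names hold dates, replaced here by codes 1 to 5 from the earliest to the latest; what the dates mark is not stated in the labels. The sdc-2 embryos had code 5 and their controls code 3, and the dpy-27 embryos had code 1 and their controls code 2. In both of these comparisons the genotype and the date cannot be told apart. Of the XO samples 3 had code 2 and 5 had code 5, and of the egg-plate wild type 3 had code 2 and 3 had code 4, so that only code 2 holds both groups.

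Values are log2 RMA expression values of probe sets, and a change is a difference of log2 means from 1 limma model over 6 groups. A gene was called at a Benjamini-Hochberg adjusted p below 0.05 over all 17118 genes, and "rose" and "fell" are used of called genes only. The value of a probe set depends on its probes as well as on the transcript, so levels are compared between arrays and not between genes. These are whole embryos, so fewer cells of a type and less RNA per cell cannot be told apart. The probe set for sdc-2 gave 4.18 to 4.55 in XO embryos against 9.08 to 9.85 in the egg-plate wild type. It gave 9.37 to 9.90 in sdc-2 embryos against 9.93 to 10.09 in their controls (-0.36, SE 0.17, adjusted p = 0.158). The probe set for dpy-27 gave 10.37 to 10.55 in dpy-27 embryos against 10.41 to 10.59 (-0.05, SE 0.16, adjusted p = 0.842). The sources used here do not place these probe sets relative to each mutation, so for the XX mutants they check no label. Of 2352 X-linked genes, 30.7% rose in sdc-2 embryos, 39.2% rose in dpy-27 embryos and 48.5% fell in XO embryos at date code 2.

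The members were unevenly spread over the genome. Chromosome V held 31 of them, 51.7%, where it held 25.2% of all genes measured, and X held 12, 20% against 13.7%. In the RefSeq gene table (assembly WBcel235, used for names and gene order only) asp-6, asp-12 and asp-5 are direct neighbours on V. So are asp-15 and asp-1, asp-8 and asp-7, and cpr-5 and cpr-8, and the astacins nas-18, nas-17 and nas-19 and the astacins nas-20, nas-21 and nas-22 form further runs. On every array 12 members exceeded the median of all genes, namely asp-1, asp-3, asp-4, asp-5, asp-6, cpi-2, cpr-6, cpz-1, cpz-2, nas-6, nas-7 and nas-12. Another 33 members lay below that median on every array, 22 of them astacins, and 8 of these 33 lay below the lower quartile on every array. The 33 include nas-36 and nas-37, astacins known for their part in larval moulting, and nas-39, a relative of tolloid.

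**Figure D1:**
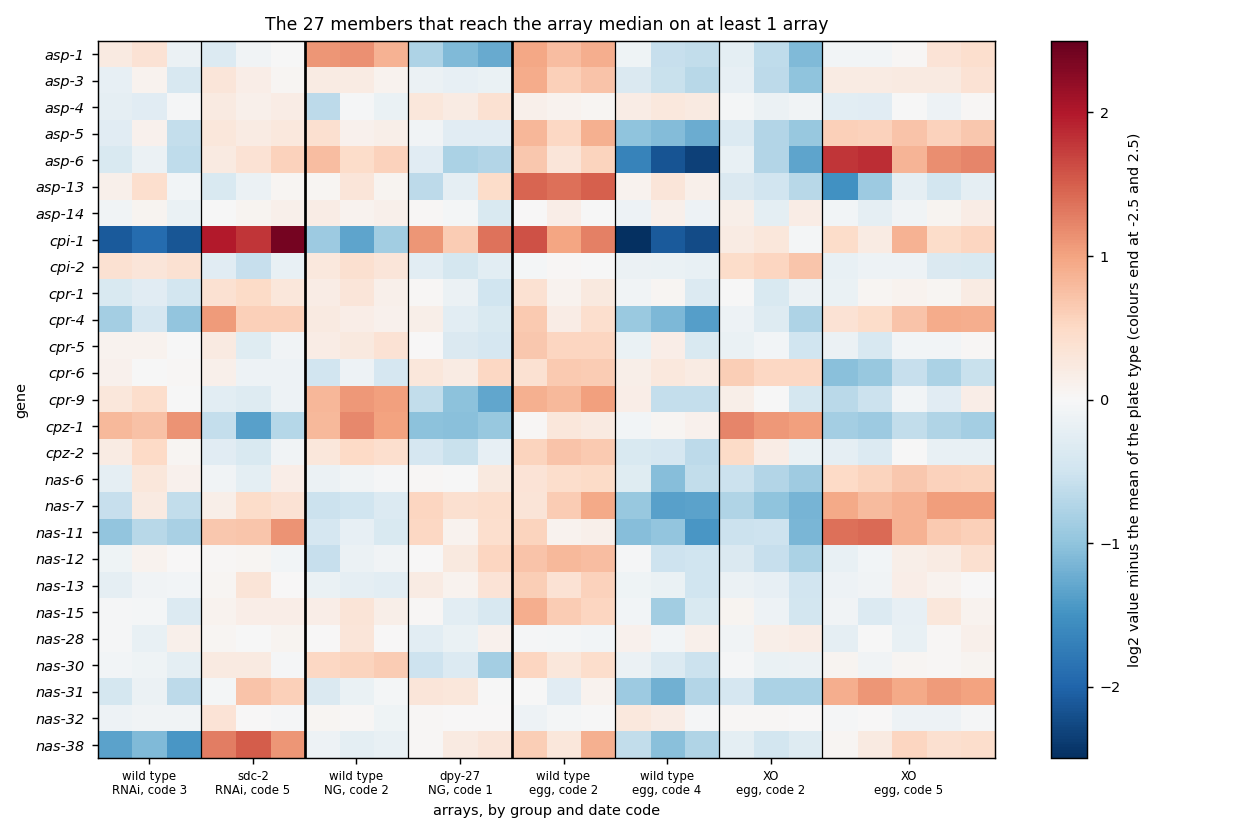
Log2 value of the 27 members that reached the array median on at least 1 array, minus the mean of the arrays of the same plate type, for each of the 26 arrays (columns, by group and date code, with thick lines between plate types). Red is above and blue below that mean. cpi-1 is the row with the widest swings, high in sdc-2 embryos and in the egg-plate wild type of code 2 and low in the egg-plate wild type of code 4.

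In sdc-2 embryos, 6 members rose and 2 fell. The 6 are 10% of the members, where 8.28% of all genes rose, and the 2 are 3.33%, where 11.5% of all genes fell. The median change over the members was 0.07, and over all genes 0.02. The members that rose were the cystatin gene cpi-1, the astacins nas-38 and nas-11, the cathepsin B-like genes cpr-4 and cpr-1, and the aspartyl protease asp-4. Those that fell were the second cystatin, cpi-2, and the cathepsin Z-like gene cpz-1. By family, 2 of 33 astacins, 1 of 15 aspartyl proteases and 2 of 8 cathepsin B-like genes rose. These counts moved with how date codes entered the model. Each group here had a single date code, so neither of the following fits tests a date effect in this comparison. With a random block for date limma called 0 members (and 28 rises and 15 falls over all genes, with 1609 of all genes at an unadjusted p below 0.05). With separate means for every group at every date it called 15 (25%, where 32.1% of all genes were called). Those 15 were the 8 above, the risers asp-5, asp-6, asp-12, nas-7, nas-10 and nas-31, and cpz-2, which fell.

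The cystatin cpi-1 had the widest difference. Its values were 9.92, 9.74 and 10.33 in sdc-2 embryos and 5.84, 6.02 and 5.81 in the RNAi-plate wild type. The groups did not overlap, and cpi-1 rose by 4.11 on the log2 scale (SE 0.77, 17.2-fold, adjusted p = 0.00064). The call held without any 1 of the 6 arrays.

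The X-linked astacin nas-38, known for its part in the sleep of moulting larvae, had values of 8.91, 9.15 and 8.74 in sdc-2 embryos against 6.29, 6.53 and 6.17. It rose by 2.60 on the log2 scale (SE 0.36, 6.08-fold, adjusted p = 3.94e-05), with all 3 mutant arrays above all 3 controls, and kept its call without any 1 array. The X-linked astacin nas-11 had 7.73, 7.76 and 8.17 against 6.06, 6.36 and 6.23. These groups also did not overlap, and nas-11 rose by 1.67 on the log2 scale (SE 0.54, 3.17-fold, adjusted p = 0.0304). None of the 6 fits without 1 array kept that call. With separate means for every group at every date, limma gave the nas-11 change an SE of 0.21 (adjusted p = 8.07e-07).

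The cathepsin B-like gene cpr-4, which encodes a secreted cysteine protease, had 9.61, 9.13 and 9.14 in sdc-2 embryos and 7.68, 8.12 and 7.55 in wild type. It rose by 1.51 on the log2 scale (SE 0.45, 2.84-fold, adjusted p = 0.02), and the call was lost without sdc-2 array A or without wild-type array A or C. The gut cysteine protease gene cpr-1 gave 7.89, 7.98 and 7.79 against 7.13, 7.22 and 7.04, a smaller but tighter difference. It rose by 0.76 on the log2 scale (SE 0.16, 1.69-fold, adjusted p = 0.0015) and kept its call without any 1 array.

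The X-linked aspartyl protease asp-4, a cathepsin D-like gene needed for necrotic death of neurons, gave 12.34, 12.26 and 12.31 against 11.89, 11.84 and 12.09. The 3 mutant arrays were the higher ones, and asp-4 rose by 0.36 on the log2 scale (SE 0.12, 1.29-fold, adjusted p = 0.0293). That call held without wild-type array C and was lost without any of the other 5 arrays, but the second asp-4 probe set also rose, by 0.57 (SE 0.13, adjusted p = 0.00309). Over the 12 X-linked members 3 rose (25%, where 30.7% of X-linked genes rose).

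On the falling side, cpi-2, a cystatin gene needed for normal oocytes and fertility, gave 11.41, 11.12 and 11.50 in sdc-2 embryos and 12.07, 12 and 12.08 in wild type. It fell by 0.71 on the log2 scale (SE 0.21, 1.63-fold, adjusted p = 0.0182), a call lost without sdc-2 array B or without wild-type array A or C. A second, dimmer cpi-2 probe set was not called and had the opposite sign, 0.29 (SE 0.28, adjusted p = 0.566). The cathepsin Z gene cpz-1, which acts in moulting, gave 9.15, 8.38 and 9.04 against 10.55, 10.48 and 10.87. It fell by 1.78 on the log2 scale (SE 0.47, 3.43-fold, adjusted p = 0.0088), and the call was lost only without sdc-2 array B, the array with the lowest value. Its relative cpz-2 gave 9.46, 9.37 and 9.66 against 9.95, 10.24 and 9.79, a difference of -0.50 (SE 0.28, adjusted p = 0.254) that did not pass.

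In dpy-27 embryos, 3 members rose and 8 fell. The 3 are 5% of the members, where 17% of all genes rose, and the 8 are 13.3%, where 13.5% of all genes fell. The median change over the members was -0.08, and over all genes 0.03. The risers were cpi-1, asp-4 and the dim astacin nas-19. The gene with the largest fall was asp-1, and the others were cpz-1, cpr-9, nas-30, cpz-2, cpi-2, nas-1 and cpr-1. Both cathepsin Z-like genes fell, as did 2 of 8 cathepsin B-like genes, 1 of 15 aspartyl proteases and 2 of 33 astacins. With a random block for date limma called 4 members (6.67%, where 6.21% of all genes were called), of which asp-1, cpi-1 and nas-30 are among the 11 and cpr-6 is not. With separate means for every group at every date it called 22 (36.7%, where 42.5% of all genes were called), the 11 above with asp-5, asp-6, cpr-2 and cpr-5, which fell, and asp-11, cpr-6, nas-7, nas-11, nas-12, nas-13 and nas-38, which rose.

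The aspartyl protease asp-1, an enzyme of the intestine, gave 9.18, 8.84 and 8.68 in dpy-27 embryos and 11.05, 11.09 and 10.82 in the NG-plate wild type. All mutant arrays were over 1 log2 unit below all controls, and asp-1 fell by 2.08 on the log2 scale (SE 0.38, 4.24-fold, adjusted p = 0.000195). The cathepsin B-like gene cpr-9 gave 6.64, 6.24 and 5.96 against 8.09, 8.35 and 8.28 and fell by 1.96 on the log2 scale (SE 0.34, 3.89-fold, adjusted p = 0.000107). For cpz-1 the values were 8.19, 8.16 and 8.25 against 10.01, 10.42 and 10.21. It fell by 2.01 on the log2 scale (SE 0.47, 4.03-fold, adjusted p = 0.002), and these 3 falls were called without any 1 array.

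The astacin nas-30 gave 5.38, 5.56 and 5.04 in dpy-27 embryos against 6.42, 6.45 and 6.53. Its groups lay apart, and it fell by 1.14 on the log2 scale (SE 0.20, 2.21-fold, adjusted p = 0.000106). The second cathepsin Z gene, cpz-2, gave 8.23, 8.09 and 8.45 against 8.94, 9.14 and 9.07. It fell by 0.80 on the log2 scale (SE 0.28, 1.74-fold, adjusted p = 0.0348), but the call held only without dpy-27 array C and was lost without each of the other 5. The dim astacin nas-1 gave 4.50, 4.46 and 4.29 against 4.91, 4.92 and 4.94. It fell by 0.51 (SE 0.11, adjusted p = 0.00107), without overlap and whichever array was omitted.

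The cystatins, by their brighter probe sets, again moved in opposite directions. cpi-1 gave 7.49, 7.02 and 7.74 in dpy-27 embryos against 5.48, 5.07 and 5.52, without overlap. It rose by 2.06 on the log2 scale (SE 0.77, 4.17-fold, adjusted p = 0.0441), but no fit without 1 of the 6 arrays kept that call. The SD of cpi-1 was 1.96 over the egg-plate wild type and 0.36 over the dpy-27 arrays. With separate means for every group at every date, limma gave the same change an SE of 0.19 (adjusted p = 3.14e-09). cpi-2 gave 11.57, 11.39 and 11.55 against 12.08, 12.21 and 12.12 and fell by 0.64 (SE 0.21, adjusted p = 0.0219). Its call was lost without dpy-27 array B or wild-type array B or C. The dimmer cpi-2 probe set rose instead, by 1.54 (SE 0.28, adjusted p = 0.000195), with 6.93 to 6.98 in dpy-27 embryos against 5.17 to 5.57, so the direction of cpi-2 in dpy-27 embryos differed between its probe sets.

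Among the remaining calls, asp-4 gave 12.12, 12.03 and 12.21 against 11.18, 11.80 and 11.67. All 3 mutant arrays were higher, asp-4 rose by 0.57 (SE 0.12, adjusted p = 0.000607), and no single array decided it. Its second probe set rose by 0.92 (SE 0.13, adjusted p = 1.15e-05). It was the only 1 of 12 X-linked members that rose in dpy-27 embryos, 8.33%, where 39.2% of X-linked genes rose. cpr-1 gave 5.79, 5.60 and 5.25 against 5.95, 6.05 and 5.88 and fell by 0.41 (SE 0.16, adjusted p = 0.0478), and the call held only without dpy-27 array A. nas-19 gave 4.79, 4.63 and 4.70 against 4.46, 4.36 and 4.35 and rose by 0.32 (SE 0.09, adjusted p = 0.0104), and lost its call without dpy-27 array A.

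**Figure D2:**
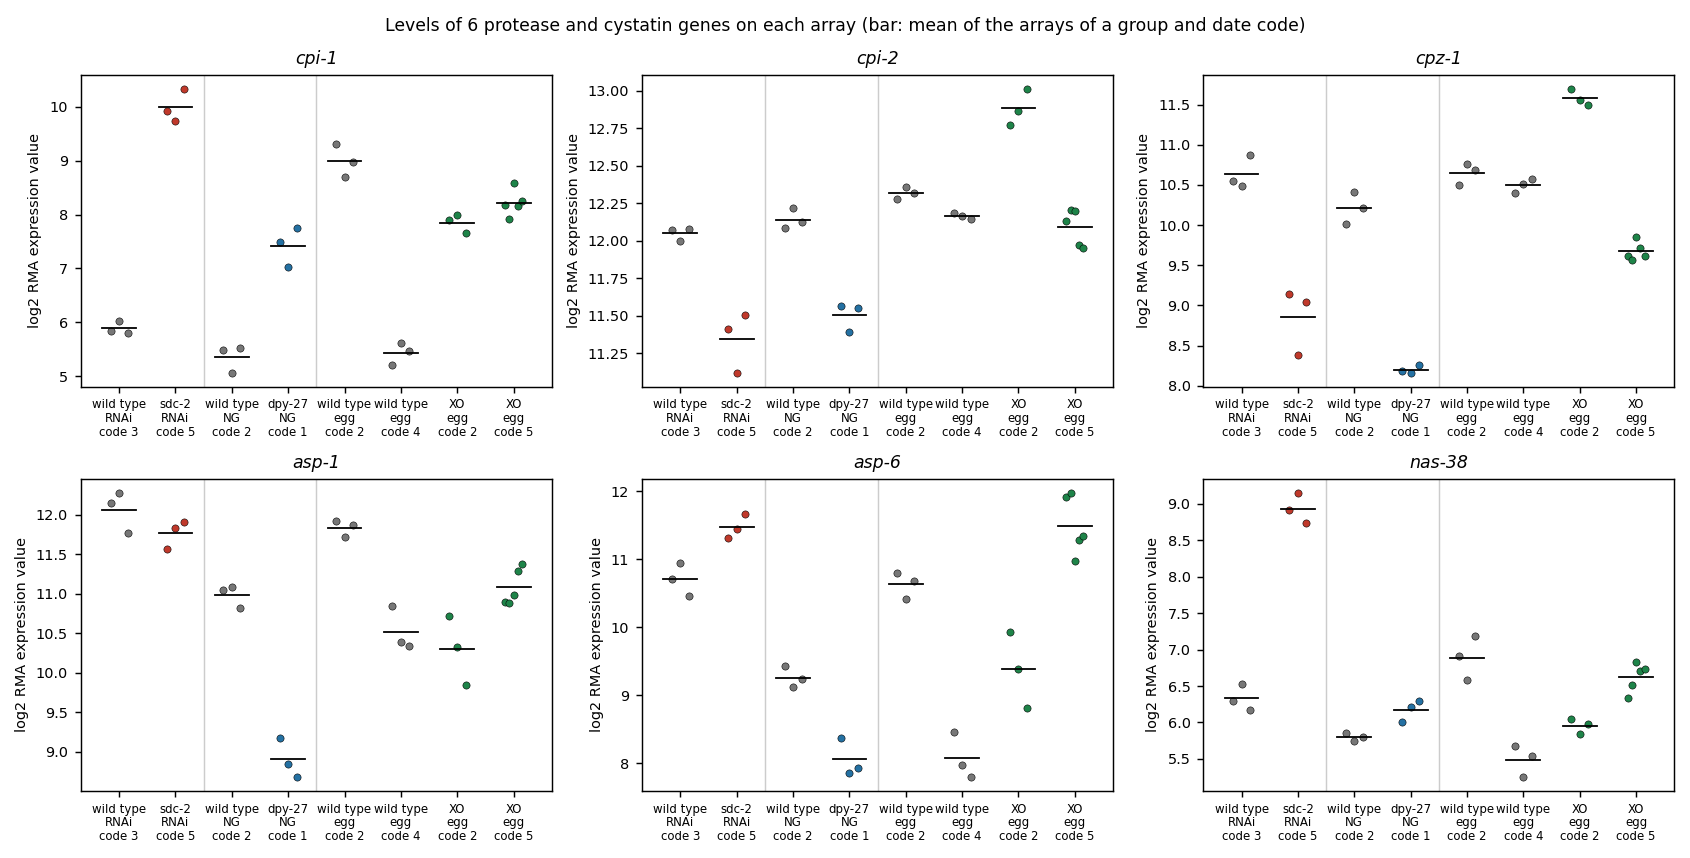
Log2 RMA expression value (vertical axis) of cpi-1, cpi-2, cpz-1, asp-1, asp-6 and nas-38 on each array, by group, plate type and date code; dots are arrays, bars are means, and grey lines separate the plate types. In sdc-2 embryos cpi-1 lies at 9.74 to 10.33 against 5.81 to 6.02 in their controls, and in the egg-plate wild type it lies at 8.70 to 9.30 for code 2 and at 5.21 to 5.61 for code 4.

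The sdc-2 and dpy-27 comparisons share no arrays, so their effects were tested against each other directly. In this limma test 8 of the 60 members and 3723 of all 17118 genes had an unadjusted p below 0.05. The effect was called higher in sdc-2 embryos for 4 members (6.67%, where 3.23% of all genes were higher). It was called lower for 0 members (where 5.68% of all genes were lower). These 4 were nas-38, asp-1, nas-30 and cpr-1. With a random block for date 0 of the 4 were called (and 9 of all genes, with 1376 at an unadjusted p below 0.05). For nas-38 the difference between the effects was 2.23 (SE 0.51, adjusted p = 0.00683), and its change in dpy-27 embryos was 0.37 (SE 0.36, adjusted p = 0.484). For asp-1 the difference was 1.79 (SE 0.54, adjusted p = 0.0367), with asp-1 at -0.29 (SE 0.38, adjusted p = 0.688) in sdc-2 embryos. This call was lost in 11 of 12 fits without 1 array, all but the fit without dpy-27 array A, and after joint quantile normalisation; the other 3 calls held in all 12. For nas-30 it was 1.42 (SE 0.28, adjusted p = 0.00198), and for cpr-1, which rose in the sdc-2 and fell in the dpy-27 comparison, it was 1.17 (SE 0.22, adjusted p = 0.00157). The difference for cpi-1 was 2.05 (SE 1.08, adjusted p = 0.282) and did not pass, and for cpz-1 it was 0.23 (SE 0.66, adjusted p = 0.892). With separate means for every group at every date, limma called the cpi-1 difference (SE 0.27, adjusted p = 6.33e-06) but not that of cpz-1 (SE 0.20, adjusted p = 0.475). The plate types differ in the spread of their values, with an SD over genes of 1.99 to 2.06 on RNAi-plate arrays and 2.44 to 2.46 on NG-plate arrays, and appear to have been normalised apart, so these differences also cross plate types.

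**Figure D3:**
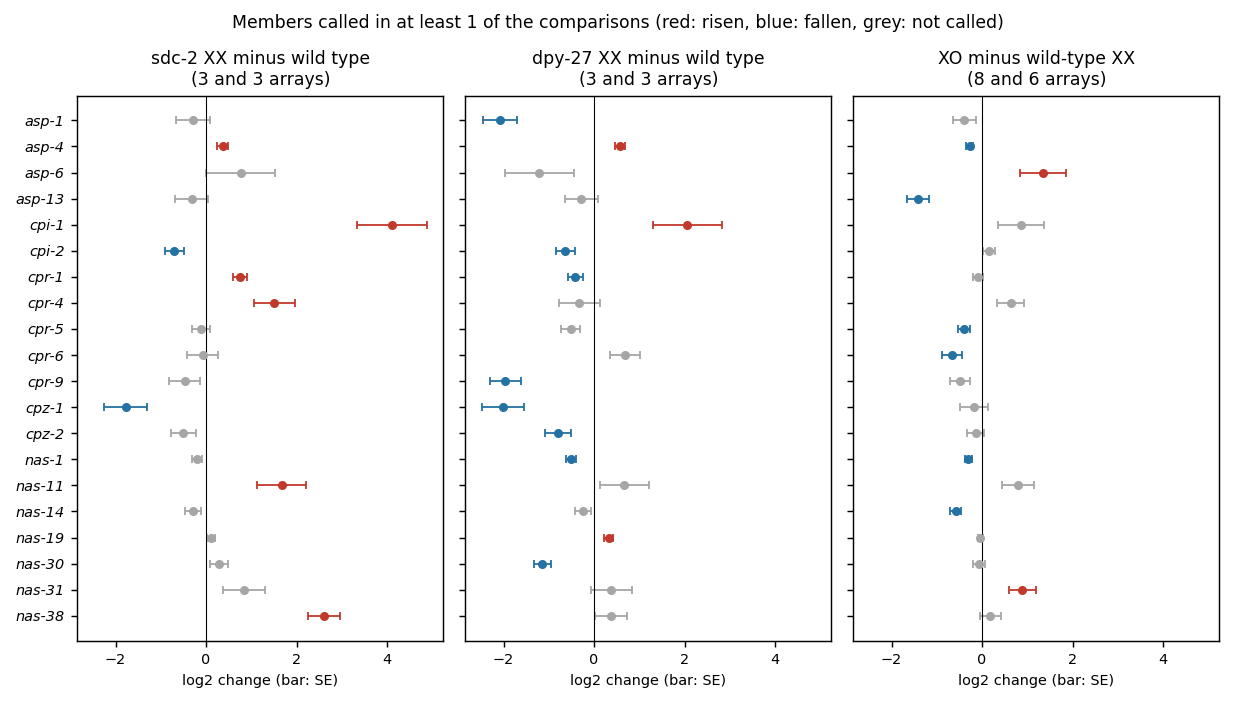
Log2 change (horizontal axis, bars are standard errors) of the 20 members called in at least 1 of the sdc-2, dpy-27 and XO comparisons. cpi-1 (4.11 and 2.06), cpz-1 (-1.78 and -2.01), cpi-2 (-0.71 and -0.64) and asp-4 (0.36 and 0.57) were called with the same sign in sdc-2 and dpy-27 embryos, and in the XO comparison asp-13 (-1.42) and asp-6 (1.35) lie farthest from 0.

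In the pooled comparison of 8 XO with 6 wild-type arrays, 2 members rose and 6 fell. The 2 are 3.33% of the members, where 15.8% of all genes rose, and the 6 are 10%, where 14.1% of all genes fell. The 2 that rose were the aspartyl protease asp-6 and the astacin nas-31. The 6 that fell were asp-13, cpr-6, nas-14, cpr-5, nas-1 and asp-4. Of these 8 members, 6 had groups that overlapped, and asp-13 and asp-4 had every XO array below every wild-type array. The share of all called genes without overlap was not counted. The count of called members rests on how dates enter the model: limma called 20 members with a random block for date (33.3%, where 34.1% of all genes were called). Of the 8 members, asp-13, cpr-5, nas-1 and nas-14 were called there, asp-4 and cpr-6 were not, and the estimates for asp-6 (-0.55) and nas-31 (-0.21) turned negative without passing.

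The aspartyl protease asp-13 gave 6.87, 6.75 and 6.54 in XO embryos of date code 2 and 5.72, 6.31, 7.0, 6.77 and 7.0 at code 5. In wild type it gave 8.69, 8.60 and 8.72 at code 2 and 7.32, 7.54 and 7.36 at code 4. It fell by 1.42 on the log2 scale (SE 0.24, 2.67-fold, adjusted p = 9.67e-05) and kept its call without any 1 of the 14 arrays. The X-linked asp-4 was lower by a small step, with 11.55, 11.45 and 11.51 and then 11.35, 11.33, 11.60, 11.48 and 11.64 in XO against 11.74, 11.68 and 11.65 and 11.79, 11.86 and 11.82 in wild type. It fell by 0.27 (SE 0.08, adjusted p = 0.0102), whereas its second probe set was at 0.09 (SE 0.09, adjusted p = 0.452).

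The X-linked cathepsin B gene cpr-6 shows what pooling joins. XO embryos gave 10.40, 10.30 and 10.30 at code 2, all inside the range of wild type, which gave 10.17, 10.43 and 10.43 at code 2 and 9.94, 10.05 and 9.99 at code 4. XO embryos of code 5 gave 8.74, 8.84, 9.21, 8.99 and 9.23, below every other egg-plate array. The pooled fall was 0.67 (SE 0.22, adjusted p = 0.0267), and it was lost without XO array 5A, 5B or 5D or wild-type array 2B or 2C.

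The same held for the pooled rises. asp-6 gave 11.91, 11.98, 10.97, 11.28 and 11.34 in XO embryos of code 5 but 9.94, 9.39 and 8.81 at code 2. Wild type gave 10.80, 10.42 and 10.67 at code 2 and 8.45, 7.97 and 7.80 at code 4. Both genotypes had a high and a low date, and the pooled rise of 1.35 (SE 0.51, adjusted p = 0.0469) was lost without any 1 of the 5 XO arrays of code 5 or of the 3 wild-type arrays of code 4. nas-31 gave 7.01, 7.21, 7.06, 7.16 and 7.11 in XO of code 5 and 5.69, 5.32 and 5.32 in XO of code 2. In wild type it gave 6.10, 5.82 and 6.20 at code 2 and 5.19, 4.91 and 5.37 at code 4. It rose by 0.89 (SE 0.30, adjusted p = 0.0299) in the pooled comparison, a call lost without the same 8 arrays.

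The dim astacins nas-14 and nas-1 kept their pooled falls without any 1 array. nas-14 gave 4.96, 4.75 and 4.73 and then 4.40, 4.49, 4.67, 4.73 and 4.73 in XO against 5.67, 5.43 and 5.36 and 4.88, 5.28 and 4.97 in wild type, and fell by 0.58 (SE 0.12, adjusted p = 0.000754). nas-1 gave 4.77, 4.79 and 4.68 and then 4.72, 4.52, 4.58, 4.64 and 4.65 against 5.30, 4.99 and 5.09 and 4.95, 4.76 and 4.75, and fell by 0.30 (SE 0.07, adjusted p = 0.0026). The wild-type arrays of code 2 were the highest for both. cpr-5 gave 6.44, 6.54 and 6.12 and then 6.46, 6.21, 6.54, 6.53 and 6.63 against 7.28, 7.15 and 7.14 and 6.45, 6.77 and 6.23. Its fall of 0.40 (SE 0.14, adjusted p = 0.0285) was lost without XO array 2C or 5B or without any 1 of the wild-type arrays of code 2.

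The dates of the egg-plate arrays were then compared with each other in a model with 4 means, XO at codes 2 and 5 and wild type at codes 2 and 4, over 14 arrays. Between wild-type embryos of date codes 4 and 2, 2 members rose and 28 fell. The 28 are 46.7% of the members, where 18.9% of all genes fell, and the 2 are 3.33%, where 21.2% of all genes rose. The genotype was the same at both dates. Falls were called in 14 of 33 astacins, 5 of 15 aspartyl proteases, 7 of 8 cathepsin B-like genes, 1 of 2 cathepsin Z-like genes and 1 of 2 cystatins. Of the 19 members whose mean over all arrays exceeded the median level, 16 fell (84.2%, where 25.8% of all genes above that level fell).

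cpi-1 was again the member with the largest difference, 5.21, 5.61 and 5.48 at code 4 against 9.30, 8.70 and 8.97 at code 2, and fell by 3.55 on the log2 scale (SE 0.17, 11.7-fold, adjusted p = 2.83e-09). The 2 dates did not overlap. asp-6 fell by 2.56 (SE 0.28, adjusted p = 4.33e-06), from the values already given. Its neighbour asp-5 gave 9.69, 9.60 and 9.44 at code 4 against 11.52, 11.20 and 11.57 at code 2. It fell by 1.85 on the log2 scale (SE 0.13, 3.61-fold, adjusted p = 1.01e-07), with all arrays of code 4 below all arrays of code 2. The second probe set of asp-6 fell by 2.73 and that of asp-5 fell by 2.07. The dim gene asp-12, which lies between asp-6 and asp-5, stood at -0.24 (SE 0.09, adjusted p = 0.0521). The intestinal asp-1 fell by 1.32 (SE 0.19, adjusted p = 6.76e-05). asp-3, a cathepsin D-like gene that like asp-4 acts in necrotic neurons, gave 9.63, 9.43 and 9.29 against 10.91, 10.58 and 10.70. It fell by 1.28 (SE 0.15, adjusted p = 9.75e-06).

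Among the astacins nas-7 and nas-6 are known from the grinder of the pharynx. nas-7 gave 7.79, 7.36 and 7.39 at code 4 against 9.05, 9.36 and 9.67 at code 2, and fell by 1.84 on the log2 scale (SE 0.15, 3.59-fold, adjusted p = 3.84e-07). nas-6 ranged from 7.09 to 7.85 against 8.48 to 8.62, and fell by 1.07 (SE 0.14, adjusted p = 2.77e-05). Neither gene overlapped between the dates. nas-11 gave 5.06, 5.13 and 4.68 against 6.67, 6.21 and 6.25, and fell by 1.42 (SE 0.23, adjusted p = 0.000164). nas-38 gave 5.68, 5.25 and 5.54 against 6.91, 6.58 and 7.18, and fell by 1.40 (SE 0.15, adjusted p = 4.49e-06). These genes, which rose in sdc-2 embryos, thus also moved between dates within wild type. nas-15 fell by 1.14 (SE 0.19, adjusted p = 0.000243), and nas-12 fell by 1.11 (SE 0.15, adjusted p = 3.93e-05). The 2 astacins that rose, nas-21 (0.24) and nas-32 (0.21), moved little.

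Among the cathepsins cpr-4 gave 6.69, 6.52 and 6.26 at code 4 against 8.28, 7.82 and 8.05 at code 2, and fell by 1.56 (SE 0.18, adjusted p = 7.93e-06). cpr-9 gave 7.59, 6.82 and 6.83 against 8.31, 8.24 and 8.44, and fell by 1.25 (SE 0.22, adjusted p = 0.000359). cpz-2 gave 9.26, 9.22 and 8.98 against 10.19, 10.34 and 10.30, and fell by 1.13 (SE 0.13, adjusted p = 9.09e-06). All 3 were lower on every array of code 4. The cathepsin genes that did not pass were cpr-2, at 0.09 (SE 0.09, adjusted p = 0.471), and cpz-1, at -0.15 (SE 0.09, adjusted p = 0.226). Nor did the cystatin cpi-2, at -0.16 (SE 0.09, adjusted p = 0.176). Subtracting each array's autosomal median moved the median of all genes by 0.17 in this comparison, after which 13 members rose (21.7%, where 46.6% of all genes rose) and 22 fell (36.7%, where 13.4% fell). It moved that median by 0.10 in the dpy-27 comparison, after which 7 members rose (11.7%, where 22.8% of all genes rose) and 6 fell (10%, where 9.66% fell).

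XO embryos could be set against wild type within a date only at code 2. There 2 members rose and 25 fell. The 25 are 41.7% of the members, where 19.6% of all genes fell, and the 2 are 3.33%, where 21.9% of all genes rose. This comparison uses the same wild-type arrays of code 2 as the comparison of the wild-type dates, so falls in both rest on the same 3 high arrays. Of the 12 X-linked members 5 fell, 41.7%, where 48.5% of X-linked genes fell, and of the 48 members on other chromosomes 20 fell, also 41.7%.

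The largest of these falls were those of asp-13, by 1.95, of nas-7, by 1.60, and of asp-1, by 1.54. asp-1 gave 10.72, 10.32 and 9.84 in XO embryos against 11.92, 11.72 and 11.87 in wild type of that code, and 10.84, 10.38 and 10.33 in wild type of code 4. For asp-1 the XO arrays of code 2 overlapped wild type of code 4. cpi-1 gave 7.91, 8.00 and 7.65 in XO embryos and fell by 1.14 (SE 0.17, adjusted p = 5.72e-05), between the 2 wild-type dates. The 2 members that rose were cpz-1 and cpi-2. cpz-1 gave 11.70, 11.56 and 11.50 against 10.50, 10.76 and 10.69. It rose by 0.94 on the log2 scale (SE 0.09, 1.92-fold, adjusted p = 1.87e-06), without overlap. cpi-2 gave 12.78, 12.86 and 13.01 against 12.28, 12.36 and 12.32 and rose by 0.56 (SE 0.09, adjusted p = 8.64e-05). Both were also above wild type of code 4, at 10.40, 10.51 and 10.58 for cpz-1 and 12.19, 12.17 and 12.14 for cpi-2.

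Between XO embryos of date codes 5 and 2, 17 members rose and 7 fell. The 17 are 28.3%, where 19.4% of all genes rose, and the 7 are 11.7%, where 21.1% of all genes fell. cpz-1 gave 9.62, 9.56, 9.85, 9.71 and 9.62 at code 5 against 11.70, 11.56 and 11.50 at code 2 and fell by 1.91 on the log2 scale (SE 0.08, 3.77-fold, adjusted p = 3.08e-09). cpi-2 gave 12.13, 12.20, 12.19, 11.97 and 11.95 against 12.78, 12.86 and 13.01 and fell by 0.79 (SE 0.08, adjusted p = 1.49e-06), whereas its dimmer probe set rose by 1.05 (SE 0.10, adjusted p = 1.6e-06). cpr-6 fell by 1.33 (SE 0.11, adjusted p = 2.57e-07) and cpz-2 fell by 0.35 (SE 0.12, adjusted p = 0.0266).

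Among the risers asp-6 rose by 2.12 (SE 0.25, adjusted p = 7.82e-06) and nas-31 rose by 1.67 (SE 0.12, adjusted p = 7.22e-08), from the values given for the pooled comparison. nas-7 gave 9.67, 9.52, 9.61, 9.77 and 9.78 at code 5 against 7.98, 7.72 and 7.57 at code 2. It rose by 1.92 on the log2 scale (SE 0.14, 3.77-fold, adjusted p = 8.56e-08), with every array of code 5 the higher. nas-11 gave 7.51, 7.55, 7.0, 6.77 and 6.71 against 5.59, 5.61 and 4.98, and rose by 1.72 (SE 0.21, adjusted p = 9.54e-06). asp-5 gave 11.27, 11.27, 11.39, 11.27 and 11.36 against 10.34, 9.95 and 9.73, and rose by 1.31 (SE 0.12, adjusted p = 6.67e-07). nas-6 rose by 1.30 (SE 0.13, adjusted p = 1.49e-06). The aspartyl family rose in 6 of 15 members with no fall, and the astacins rose in 10 of 33 and fell in 2. cpi-1 stood at 0.36 (SE 0.15, adjusted p = 0.0656), and did not pass between the XO dates.

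**Figure D4:**
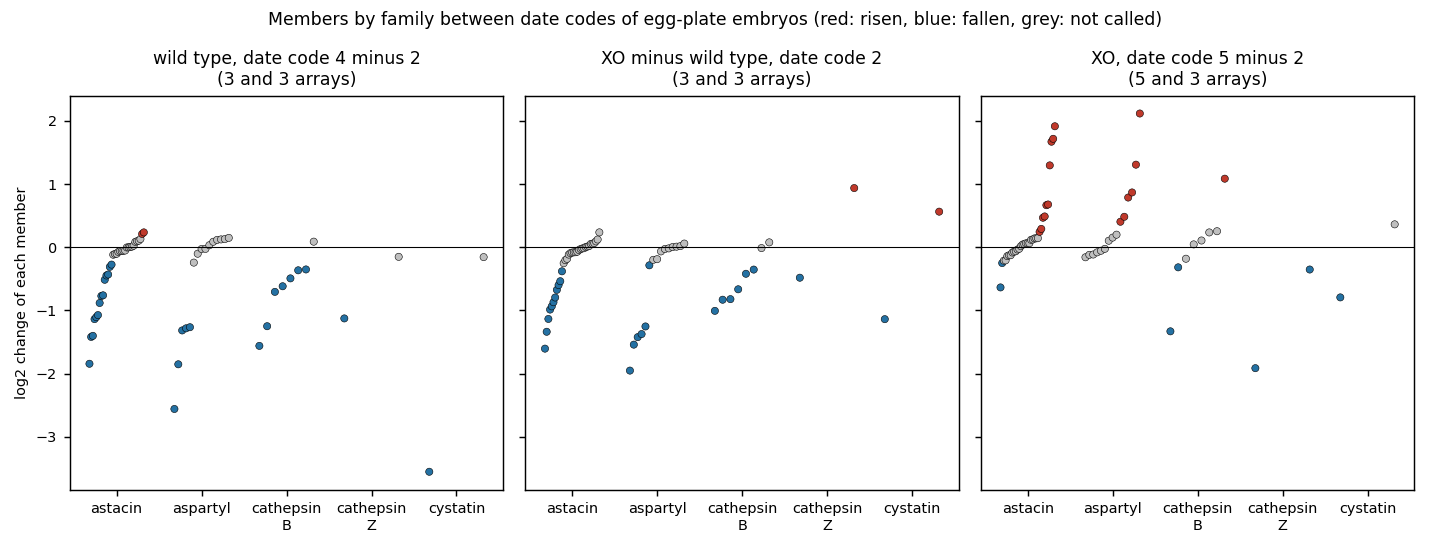
Log2 change of each of the 60 members by family between wild type of codes 4 and 2, between XO and wild type at code 2, and between XO of codes 5 and 2 (red, rose; blue, fell; grey, not called). The left panel holds 28 falls and 2 rises, the middle panel 25 falls and 2 rises, and the right panel 17 rises and 7 falls; the left and middle panels share the wild-type arrays of code 2, and the middle and right panels share the XO arrays of code 2.

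Since 28 members fell between the wild-type dates, the XO comparison was also made without the wild-type arrays of code 2, a choice made after seeing the data. XO embryos of both codes against wild type of code 4 gave 11 rises (18.3%, where 16.1% of all genes rose) and 3 falls (5%, where 14.6% fell) in place of 2 and 6. XO embryos of code 5 against wild type of code 4, the comparison with no array of code 2, gave 21 rises (35.0%, where 22.8% of all genes rose) and 10 falls (16.7%, where 22% fell). asp-6 stood at 3.42 (SE 0.20, adjusted p = 1.37e-10) there, cpi-1 at 2.78 (SE 0.17, adjusted p = 1.83e-10), nas-7 at 2.16 (SE 0.15, adjusted p = 8.56e-10) and nas-11 at 2.15 (SE 0.18, adjusted p = 8.69e-09). At code 2 the same 4 genes stood at -1.25, -1.14, -1.60 and -0.99. For these 4 the sign of the difference between XO and wild type was opposite in the 2 comparisons, which share no arrays. In the comparison of XO code 5 with wild-type code 4, genotype and date cannot be told apart. asp-13 was lower in XO in both, at -1.95 and -0.84 (SE 0.25, adjusted p = 0.00785). cpz-1 rose in XO at code 2 and fell here, at -0.82 (SE 0.14, adjusted p = 5.2e-05).

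Among 27 members that reached the array median on at least 1 array, 5 of 351 pairs had a Pearson correlation of at least 0.9 over the 26 arrays, with the mean of each plate type removed. The closest pair was the cystatin cpi-2 with the cathepsin Z gene cpz-1 (r = 0.935). The others were asp-5 with asp-3 (r = 0.921) and with its neighbour asp-6 (r = 0.92), the pharyngeal astacins nas-6 and nas-7 (r = 0.903), and cpi-1 with nas-38 (r = 0.901). The kept probe sets of asp-5 and asp-6 both carry a suffix for shared sequence, so each may also read related genes. The 3 genes over the whole array whose values ran closest to cpi-1 were C45B2.2 (r = 0.98), clc-1, a claudin-like gene (r = 0.93), and M60.4 (r = 0.92), all X-linked, whereas cpi-1 lies on chromosome IV. These are descriptions over arrays that share plates and dates. Removing the plate-type means leaves the differences between groups and dates in the values. The share of all gene pairs with a correlation of at least 0.9 was not counted.

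Genes that mark tissues and embryo stages also moved between the groups, and their part in the results above was not tested. The wild-type arrays of code 2, where 28 members fell by code 4, had an array mean over 10 pharynx genes of 8.62 to 8.73 against 7.81 to 8.10 at code 4, and 7 of the 10 fell and 1 rose from code 2 to code 4. Over 10 intestine genes the mean was 8.54 to 8.60 against 8.06 to 8.13, with 4 falls and 1 rise. Over 6 body wall muscle genes it was 10.60 to 10.67 against 10.07 to 10.18, with 3 falls, those of the muscle proteins unc-54, myo-3 and unc-15. Over 12 epidermis genes it was 10.00 to 10.08 against 9.80 to 9.92, with 4 falls and 2 rises. The oocyte and early-embryo genes went the other way, with a mean over 10 maternal genes of 9.52 to 9.76 at code 2 against 10.19 to 10.25 at code 4, and 8 of 10 rose and none fell. Over the 10 genes of the early zygotic list it was 7.12 to 7.14 against 7.58 to 7.67, with 6 rises and no fall. XO embryos of code 2 had 7.65 to 7.95 for the pharynx list, 8.06 to 8.15 for the intestine list, 9.75 to 10.05 for the maternal list and 7.21 to 7.55 for the early zygotic list. Against wild type of code 2, 9 of the 10 pharynx genes, 6 of the 10 intestine genes, 4 of the 6 muscle genes and 6 of the 12 epidermis genes fell and none rose, and 5 of the 10 maternal and 4 of the 10 early zygotic genes rose and none fell.

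Between the XO dates the pharynx mean was 8.17 to 8.54 at code 5 against 7.65 to 7.95 at code 2, with 5 rises and no fall. Of the early zygotic list 7 genes fell and 2, die-1 and pal-1, rose. Of the 10 maternal genes 4 rose and none fell between the XO dates. Calls were mixed for the intestine list (4 rises, 3 falls), the epidermis list (6 rises, 5 falls) and the muscle list (3 rises, 2 falls). In dpy-27 embryos the intestine mean was 7.95 to 7.99 against 8.27 to 8.37 in wild type, and 5 of 10 intestine genes fell and 2 rose, among them elt-2, the main GATA factor of the gut, which rose by 1.44 (SE 0.18, adjusted p = 4.12e-06). In sdc-2 embryos the intestine mean was 8.64 to 8.72 against 8.83 to 8.92, with 2 falls and 1 rise, and the maternal mean was 10.03 to 10.43 against 9.64 to 9.92, with 4 rises and no fall. In dpy-27 embryos the maternal mean was 10.02 to 10.43 against 10.51 to 10.95, with 4 falls and no rise. The epidermis, pharynx, muscle and early zygotic lists had 7, 2, 2 and 2 rises and 4, 2, 1 and 1 falls in dpy-27 embryos. In sdc-2 embryos these 4 lists had 2, 0, 2 and 1 rises and 1, 1, 2 and 1 falls. On every array, 1 gene of the pharynx list (phat-3) and 1 of the early zygotic list lay below the lower quartile of all genes. No gene of the intestine, muscle, epidermis and maternal lists did so. Genes below that quartile on some arrays only were not counted.

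**Figure D5:**
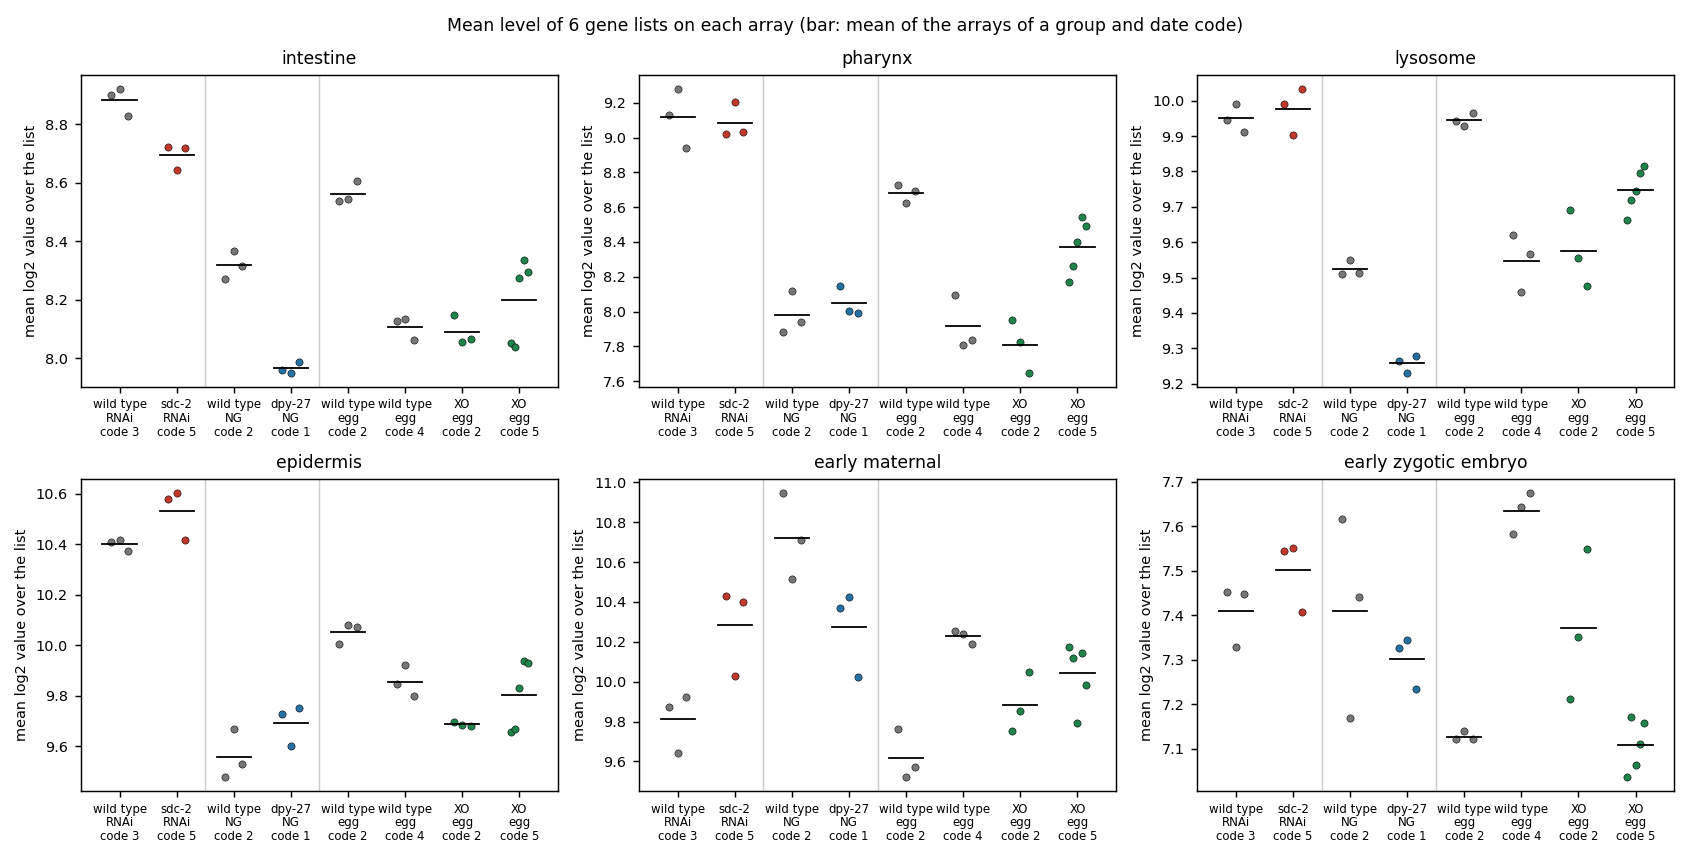
Mean log2 value (vertical axis) over the genes of 6 lists on each array, by group, plate type and date code; dots are arrays, bars are means and grey lines separate plate types, which appear to have been normalised apart. In the egg-plate wild type the pharynx and intestine means are higher at code 2 (8.62 to 8.73 and 8.54 to 8.60) than at code 4 (7.81 to 8.10 and 8.06 to 8.13), and the maternal and early zygotic means are lower.

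Other proteases and their partners moved with the dates in part. Of 3 astacins under other names, dpy-31, which processes a cuticle collagen, and toh-1 fell from wild-type code 2 to code 4, by 1.04 and 0.87, and the hatching enzyme gene hch-1 stood at -0.15 (SE 0.13, adjusted p = 0.401). All 3 fell in XO embryos at code 2, by 0.58, 0.67 and 0.40. Of 6 other cathepsins, carboxypeptidases and legumain, 5 fell and none rose between the wild-type dates, and 3 fell in sdc-2 embryos, among them cpl-1, the cathepsin L that acts in yolk processing, by 0.89 (SE 0.18, adjusted p = 0.00155). cpl-1 also fell by 1.07 (SE 0.18, adjusted p = 0.000113) in dpy-27 embryos. Of 14 lysosome genes, among them subunits of its proton pump, 7 fell between the wild-type dates and 9 fell and 3 rose in XO embryos at code 2. In dpy-27 embryos 5 of the 14 fell and 2 rose, and in sdc-2 embryos 1 fell and 2 rose. Of 7 neprilysins, a family of membrane metalloproteases, 4 fell and 1 rose between the wild-type dates, and 5 rose and none fell between the XO dates. Of 10 protease inhibitors outside the cystatins, 3 rose in sdc-2 and 2 in dpy-27 embryos, with srp-7 and cri-2 among them in each.

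In all, 40 members were called in none of the sdc-2, dpy-27 and pooled XO comparisons. Of these, 20 were also not called in any of the 3 comparisons within the egg plates, among them the moulting astacin nas-36, the neighbours nas-17 and nas-18 and the neighbours asp-7 and asp-8. nas-36 stood between -0.20 and 0.06 in the 6 comparisons. The share of all genes called in none of these comparisons was not counted, so whether the members were steadier than other genes cannot be told.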

How the data were processed

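Total RNA of embryos was hybridised as biotinylated cRNA, and the authors deposited 1 table of log2 expression values, with RMA as the tool that the submitters' processing notes name; version, build and array grouping are not given in the sources used here. The series text calls the samples biological replicas, and replicate letters did not pair them. Of 22548 probe sets, 20766 name 1 gene, 887 several and 895 none in the platform annotation; per gene the probe set with the highest mean was kept, giving 17118 genes. Of the 60 members 8 have a second probe set, and 13 kept probe sets carry a suffix for shared sequence and may read related genes. Among the 13 are those of asp-4, asp-5, asp-6, asp-13 and cpz-1. Of these genes only asp-5 has a second probe set without such a suffix.

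From these values limma 3.58.1 (R 4.3.3) fitted 6 group means over 26 arrays (20 residual degrees of freedom), and group and date means over 14 egg-plate arrays (10), with two-sided tests; the fits were tested on simulated data. Array numbers limit the precision, and so do the date differences within egg-plate groups that the 6-group model leaves in its residual spread. Array values are given for members called in at least 2 main comparisons, the 5 largest rises and falls of each, both cystatins and both cathepsin Z genes; asp-3, asp-5 and nas-7 were added after their values were seen. Members and lists were chosen with earlier results of these data known. The comparisons of XO embryos without wild-type code 2 were chosen after seeing the data.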

Additional observations from a re-analysis of the deposited data

Results flagged for a closer look

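For 4 members the effect differed between sdc-2 and dpy-27 embryos, each against its own wild type, by a test of the difference itself. The sdc-2 effect minus the dpy-27 effect was 2.23 for nas-38, 1.79 for asp-1, 1.42 for nas-30 and 1.17 for cpr-1, on the log2 scale. cpr-1 is the one of these that was called in both comparisons, with opposite signs. With date code as a random block 0 of these 4 differences passed, and the one for asp-1 was lost in 11 of 12 fits without 1 array.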

How the results depend on the processing

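The counts of called members moved with the model and, between the wild-type dates, with the scaling. After re-centring 35 members were called between those dates (58.3%, where 60% of all genes were called). The cause was not tested except where the setting itself tests fewer genes. Below, brackets give the percentage of the 60 members called and then that of all genes. The share of all genes was not counted at an adjusted p below 0.01 or with the 2-fold limit. Member counts under those rules therefore cannot be set against all genes. In sdc-2 embryos, 8 members were called (13.3% and 19.8%). There were 15 with group and date means (25% and 32.1%) and 13 with the compared arrays alone (21.7% and 26.2%). With date code as a random block limma called 0 (0% and 0.251%). Its consensus correlation was 0.619, and 1609 of all genes had an unadjusted p below 0.05. There were 4 at an adjusted p below 0.01 and 5 with a 2-fold limit. With 1 array left out 4 to 7 were called, where 12.2% to 18.3% of all genes were called. In dpy-27 embryos 11 were called (18.3% and 30.5%). There were 7 after joint quantile normalisation (11.7% and 25.8%) and 22 with group and date means (36.7% and 42.5%). The compared arrays alone gave 23 (38.3% and 40.6%), the random block 4 (6.67% and 6.21%) and array weights 22 (36.7% and 44.5%). There were 6 at 0.01 and 5 at 2-fold. With 1 array left out 7 to 10 were called, where 24.5% to 26.1% of all genes were called. In the pooled XO comparison 8 were called (13.3% and 29.8%). Of the 19 members above the median level 5 were called, where 46% of all genes above it were called. Without probe sets of shared sequence 4 of the members left were called, where 26.9% of all genes left were called. There were 19 with group and date means (31.7% and 39.9%) and 4 with the compared arrays alone (6.67% and 23.4%). The random block gave 20 (33.3% and 34.1%) and array weights 28 (46.7% and 47%). There were 14 without wild-type code 2 (23.3% and 30.7%) and 31 for code 5 against code 4 (51.7% and 44.8%). There were 3 at 0.01 and 2 at 2-fold. With 1 array left out 4 to 11 were called, where 26.1% to 31.7% of all genes were called. XO at code 2 gave 27 (45% and 41.6%), wild type by code 30 (50% and 40%) and XO by code 24 (40% and 40.5%). Of the 19 members above the median level they gave 17, 16 and 14, where 66%, 59.9% and 58.1% of all genes above it were called. They gave 10, 15 and 9 at 2-fold. With 1 array left out they gave 25 to 28, 25 to 28 and 21 to 24. The shares of all genes were then 36% to 39%, 33.4% to 38.6% and 32.9% to 40.1%. For the difference between the sdc-2 and dpy-27 effects 4 were called (6.67% and 8.91%). There were 14 with group and date means (23.3% and 22.7%) and 12 with array weights (20% and 22.1%). The random block in limma gave 0 (0% and 0.0526%), with 1376 of all genes at an unadjusted p below 0.05. With 1 array left out 3 to 5 were called, where 5.8% to 8.46% of all genes were called. In the limma test as reported, 8 members and 3723 of all 17118 genes had an unadjusted p below 0.05.

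With the replicate letters as a block, 15 members were called in sdc-2 embryos (25%, where 28.9% of all genes were called). In dpy-27 embryos 22 were called (36.7%, where 38.3% of all genes were called). Same-letter arrays correlated between -0.325 and 0.251, so the letters are not read as pairs and this replicate block is given once. Of 1868 values of called members under the alternatives, 1595 kept direction and call, 269 kept direction alone and 4 turned. These were cpi-2 as the mean of its probe sets (0.45 in dpy-27 embryos and 0.127 between the XO date codes) and, with the random block, asp-6 (-0.55) and nas-31 (-0.21) in the XO comparison. As for signal over background, 33 of the 60 members lay below the median of all genes on every array.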
